A study of Drosophila melanogaster with 2 samples.

Results

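The cuticle protein genes examined here were the 96 protein-coding genes, of 13945 on the 6 chromosome arms, whose symbols begin with Cpr, Lcp, Pcp, Ccp, Acp65 or Edg followed by a number or letter in the Ensembl annotation. They comprised 70 Cpr, 15 Lcp, 7 Ccp, 3 Edg and 1 Acp65 genes. Pcp and Cpr also occur as bare symbols of coding genes, and with nothing after the prefix they fell outside the rule. By arm, 47 genes lay on 3L, 26 on 2R, 14 on 3R, 5 on 2L and 4 on X.

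The data were peak lists from chromatin immunoprecipitation and sequencing of whole Drosophila melanogaster embryos aged 0 to 24 hours, with males and females pooled. All embryos came from a transgenic line that stably expresses the zinc-finger protein Meics with GFP at its C terminus, and an anti-GFP antibody was used. There was 1 group of 2 samples, biological replicates 1 and 3, and no untagged or input library was analysed here. The promoter that drives the fusion is not given in the sources used here, and the read depth is unknown. Whole embryos mix all cell types, so a site occupied in a few cells and a site occupied weakly in many cannot be told apart.

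The insect cuticle is built of chitin fibres and proteins secreted by the epidermis. Most Cpr proteins carry the Rebers and Riddiford consensus, a domain that binds chitin. Lcp genes encode larval cuticle proteins, Acp65Aa encodes an adult one, Edg genes were named for their dependence on ecdysone, and Ccp84A genes form a cuticle gene cluster. In the embryo the larval cuticle is laid down late, and many of these genes stand side by side in tandem arrays.

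A summit is the base of highest enrichment in a deposited region. The shorter deposited list of 7689 regions had been thresholded on IDR, the irreproducible discovery rate, which scores whether a region keeps its rank in both replicates. Each gene was given its summits within 500 bp of any of its transcription start sites (TSSs) and within 20 kb. Positions are in dm6, offsets from a TSS are negative upstream, and a rank of 1 is the region with the highest deposited signal value in its list. The signal is the authors' own value per region and is not compared between lists.

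Cpr67Fa1 and Cpr67Fb, 2 of the 3 genes of a tandem group on 3L, were the cuticle protein genes with an IDR-thresholded summit within 500 bp of a TSS. The bases around those summits are shown first, since they are the ones at a cuticle protein promoter. They are 101 bp on the plus strand at chr3L:10889498-10889598 and chr3L:10893664-10893764, with the summit as the middle base. Capitals mark TATAAA, TATCGATA, GTGACGAA or GTAACGAA on either strand, and neither window holds one.
Cpr67Fa1 summit: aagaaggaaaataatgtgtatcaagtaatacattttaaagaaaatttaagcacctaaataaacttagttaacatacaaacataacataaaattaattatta
Cpr67Fb summit: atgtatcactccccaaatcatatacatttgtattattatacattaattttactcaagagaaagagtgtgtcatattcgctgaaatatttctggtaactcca
The GC content was 18.8% in the Cpr67Fa1 window and 29.7% in the Cpr67Fb window, against 34.8% over the windows of all IDR-thresholded summits.

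The starts of the 3 genes are shown for their layout, from 60 bp before to 20 bp after the TSS on the sense strand. They lie at chr3L:10889930-10890010, chr3L:10891654-10891734 and chr3L:10894113-10894193, all on the plus strand. Capitals mark TATAAA, the core of the TATA box, and TCAGT, the core of the initiator, wherever in the window they occur.
Cpr67Fa1 start: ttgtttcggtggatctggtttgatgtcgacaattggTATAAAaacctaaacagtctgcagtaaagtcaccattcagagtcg
Cpr67Fa2 start: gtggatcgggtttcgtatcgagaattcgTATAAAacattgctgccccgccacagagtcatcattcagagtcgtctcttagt
Cpr67Fb start: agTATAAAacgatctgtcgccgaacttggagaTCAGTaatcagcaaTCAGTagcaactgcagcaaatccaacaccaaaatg
Each start holds TATAAA on the sense strand. The IDR-thresholded summits of Cpr67Fa1 and Cpr67Fb lie further upstream than their windows reach. In Cpr67Fa1 and Cpr67Fa2 the word lies where a TATA box usually does, in the stretch before the TSS that is counted below. In Cpr67Fb it lies upstream of that stretch, so this gene is not among the members counted there with TATAAA so placed. Its TCAGT words likewise begin upstream of the window around the TSS that is counted below for the initiator.

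The Cpr67Fa1 summit stood at −442 bp in the IDR-thresholded list (region chr3L:10889318-10889777), with rank 7383 and signal 150. In replicate 1 its summit was at −443 bp (rank 7828, signal 60.5). In replicate 3 the summit inside the window was at −310 bp (rank 11933, signal 58.8). The replicate 3 region whose summit was nearest to the IDR-thresholded one ranked 6869, with its summit outside the 500 bp window. No summit inside the window was thus among the strongest 7689 of either replicate taken alone.

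The Cpr67Fb summit stood at −459 bp (region chr3L:10893484-10893943), with rank 7325 and signal 151. Replicate 1 had a summit at −455 bp (rank 9298, signal 51.8) and replicate 3 had one at −485 bp (rank 6195, signal 107). A stronger IDR-thresholded summit at −662 bp lay just outside the window, with rank 3059 and signal 317 (region chr3L:10893281-10893740). It ranked 2559 in replicate 1 and 3734 in replicate 3. The −459 bp summit lies within 230 bp of that one. When summits so close to a stronger one were left out, an alternative chosen after the data were seen, the count of 2 became 1, with Cpr67Fa1 alone. Cpr67Fa2, between the pair, had its nearest IDR-thresholded summit 1797 bp away, which is the same −662 bp one.

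The cuticle protein genes thus had 2 of 96 members (2.08%) with an IDR-thresholded summit at a TSS, against 26.1% of all protein-coding genes (3645 of 13945, members included). No test was made of this difference, since the members were chosen with earlier results known. The longer lists of 30000 regions each include weaker regions and background. There, 13 members (13.5%) had a summit in the pooled list, against 46.2% of coding genes. The count was 18 (18.8%) against 45.9% in replicate 1 and 15 (15.6%) against 48.5% in replicate 3. Over the replicate lists the share was 17.2% ± 2.21 for cuticle protein genes and 47.2% ± 1.83 for coding genes (SD, n = 2 each). The lower share of cuticle protein genes was seen in each of the 4 lists. These are not independent, since the pooled and IDR-thresholded lists were made from both replicates. The SDs give the change between 2 replicates over the same genes, not a spread over genes.

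With each replicate cut to its own 7689 strongest regions, 1 member had a summit in replicate 1, against 26.2% of coding genes, and 1 in replicate 3, against 26.8%. These were different genes: Cpr65Av in replicate 1 and Cpr67Fb in replicate 3.

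**Figure D1:**
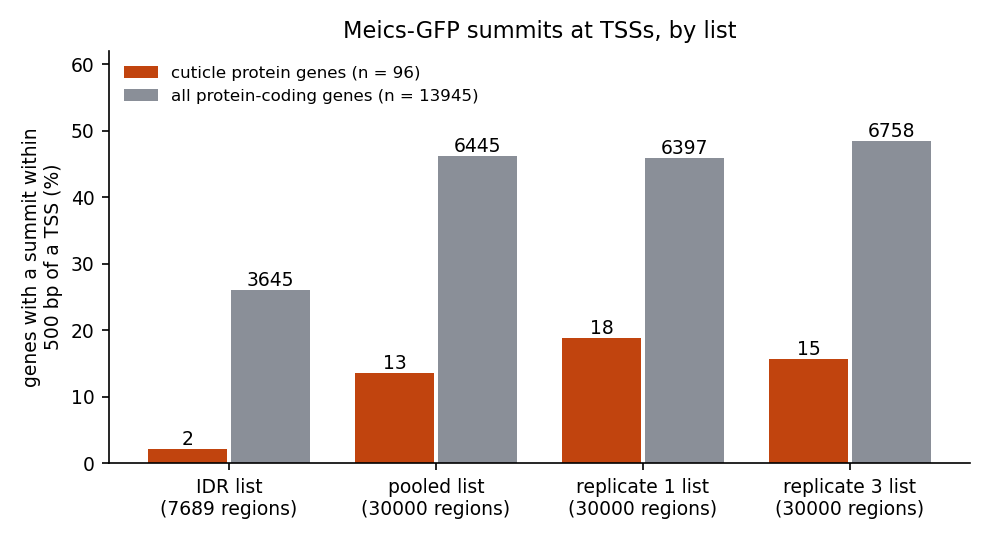
Share of genes with a summit within 500 bp of a TSS (y axis, %) in the IDR-thresholded, pooled, replicate 1 and replicate 3 lists, for the 96 cuticle protein genes (orange) and all 13945 protein-coding genes (grey). The cuticle protein bars run between 2.08% and 18.8%, below the 26.1% to 48.5% of all coding genes in every list.

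Which members had a summit varied between the replicates. In the lists of 30000 regions, 10 members had a summit in both replicates, 8 in replicate 1 alone and 5 in replicate 3 alone. The shared 10 were 55.6% of the replicate 1 members and 66.7% of the replicate 3 members. Among all coding genes the shared 5544 were 86.7% of those of replicate 1 and 82% of those of replicate 3. The pooled list added Cpr72Eb at −409 bp (rank 29564), so 24 members had a summit in at least 1 of the 3 longer lists and 72 had none. Of the 13 pooled members, 11 fell below the IDR threshold, and their ranks ran up to 29564 with a median of 16974 over all 13. The median rank of the best pooled summit of coding genes was 6169.

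Cpr65Av, a gene of the large array on 3L, came nearest to the threshold from below. Its pooled summit at −351 bp had rank 7808 and signal 142, where the weakest IDR-thresholded region had a signal of 144. The summit lay at −341 bp in replicate 1 (rank 6105, signal 75.4) and at −333 bp in replicate 3 (rank 11176, signal 62.9). Replicate 1 therefore ranked it higher than replicate 3 did.

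The window around the pooled Cpr65Av summit is shown because this gene decides where the count of 2 ends. It is 101 bp of the plus strand at chr3L:6140275-6140375, and the gene is on the minus strand. It holds none of the searched words, so nothing is in capitals.
Cpr65Av summit: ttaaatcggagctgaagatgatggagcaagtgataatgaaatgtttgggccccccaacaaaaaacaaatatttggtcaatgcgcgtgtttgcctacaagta

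Of the other shared members, Cpr65Ea had its pooled summit at −223 bp (rank 12293), with rank 15873 in replicate 1 and 12182 in replicate 3. Lcp65Ae, a larval cuticle gene, had one at +210 bp (rank 16974), which in replicate 1 was at +91 bp (rank 9648) and in replicate 3 at +256 bp (rank 28819). Cpr78Cb had 3 pooled summits, the strongest at −434 bp (rank 16836). That one was seen in replicate 3 (−435 bp) and not in replicate 1, while a weaker one at +425 bp was seen in both. In Cpr78Cc the replicates disagreed on the place, with −345 bp in replicate 1 and +272 bp in replicate 3, and likewise in Cpr65Au, with +295 bp and −302 bp. Cpr73D (pooled −229 bp and −494 bp) and Cpr11A (pooled −133 bp) had a summit in both replicates at low ranks. In Cpr73D the places differed, with −228 bp in replicate 1 and −457 bp in replicate 3. Cpr73D ranked 18147 in replicate 1 and 22782 in replicate 3, and Cpr11A 27904 and 24427.

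Seen in replicate 1 alone were Cpr47Eb, Cpr47Ed, Cpr47Ef, Cpr49Aa, Cpr49Ad, Cpr49Ag, Lcp65Af and the adult gene Acp65Aa. Cpr23B, Lcp65Ag2, Cpr65Aw, Cpr67B and Cpr78Ca had a summit in replicate 3 alone. The arms were not alike in this. On 2R, 6 of the 26 members had a summit in replicate 1 and 0 in replicate 3, where coding genes of that arm stood at 47% in replicate 1 and 48.6% in replicate 3. On 3L, 11 of 47 members had one in replicate 1 (coding genes 46.5%) and 13 in replicate 3 (coding genes 48.4%). On 3R it was 0 of 14 in each replicate, against 47.3% of coding genes in replicate 1 and 48.6% in replicate 3.

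By family, the Cpr genes held both IDR-thresholded summits. Their median distance to the nearest such summit was 9868 bp (70 genes), and that of the 15 Lcp genes was 12335 bp. The 7 Ccp genes stood furthest away, at a median of 35145 bp and not nearer than 29141 bp. They are neighbours in 1 array on 3R and share the same nearest summit (rank 4442), so their median describes 1 locus. None of the 7 had a summit within 500 bp in any of the 4 lists. The coding shares were 26.1% in the IDR-thresholded list, 46.2% in the pooled list, 45.9% in replicate 1 and 48.5% in replicate 3. The 3 Edg genes had no summit there in these lists either, with distances of 6132 to 26858 bp, and Acp65Aa lay at 5058 bp.

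The distance of the 96 members to the nearest IDR-thresholded summit had a median of 12126 bp (quartiles 5938 and 21900 bp, range 442 to 49857 bp), against 4237 bp for coding genes (quartiles 414 and 12015 bp). Within 2000 bp were 6 members (6.25%), against 36.9% of coding genes, and within 5000 bp 20 (20.8%), against 53.7%. In the strongest regions of single replicates the members' median was 8592 bp in replicate 1 and 11734 bp in replicate 3, a mean of 10163 ± 2222 bp (SD, n = 2). In the pooled list the medians were 1820 bp for members and 764 bp for coding genes. The longer list thus had a summit nearer to both sets of genes, and members stayed further away than coding genes in it.

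**Figure D2:**
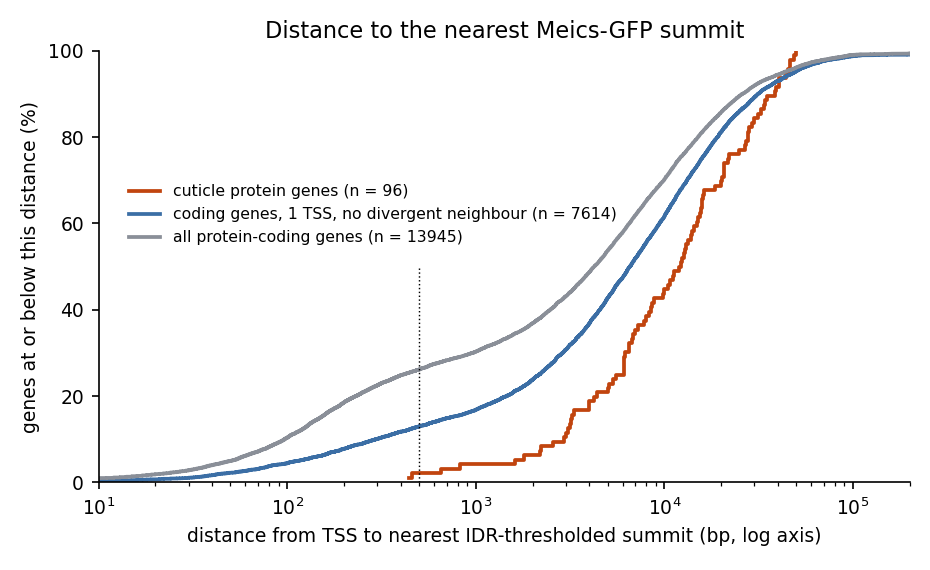
Share of genes (y axis, %) at or below a given distance (x axis, bp, log scale) from a TSS to the nearest IDR-thresholded summit, for cuticle protein genes (orange), coding genes with 1 TSS and no divergent neighbour (blue) and all protein-coding genes (grey); the dotted line marks 500 bp. The orange curve lies to the right, with a median of 12126 bp, against 6552 bp for the blue one and 4237 bp for the grey one.

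Next in distance came members whose nearest summit lay at a neighbour's promoter or between genes. Cpr73D, 652 bp away, had the peak of the promoter of Ogdh (rank 5820), which encodes a subunit of the oxoglutarate dehydrogenase complex. Cpr65Ay, 827 bp away, had that of CG13297 (rank 4487). Near Cpr76Ba an intergenic summit 1607 bp from the TSS was strong, at rank 599 with signal 941 (rank 472 in replicate 1, 773 in replicate 3). It was the strongest summit whose nearest coding TSS belongs to a cuticle protein gene. Cpr65Eb followed at 2193 bp with an intergenic summit of rank 2415 between genes of the Cpr65Ea group.

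At the far end, Cpr92F lay 49857 bp, Cpr49Ac 48907 bp, Ccp84Aa 46497 bp, Cpr50Ca 46484 bp and Ccp84Ab 45290 bp from the nearest summit. The place of the nearest summit was counted for members only, so no share of all coding genes stands beside these counts. The nearest summit lay at another gene's promoter for 53 of 96 members, in an intergenic stretch for 22 and in an intron for 12. It was in an exon for 7, all with the same l(3)mbn summit (rank 815), and at a cuticle protein promoter for 2. The nearest coding TSS of that summit was a cuticle protein gene's for 12 members and another gene's for 84. Those 96 nearest summits were 45 distinct ones, since neighbours in a tandem array share them.

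Within 20 kb, cuticle protein genes had a median of 1 IDR-thresholded summit (range 0 to 8), against 3 for coding genes (0 to 28). No summit was in the flank of 30 members (31.2%), against 14.3% of coding genes. In the pooled list the medians were 9 for members and 10 for coding genes. Weaker regions were thus about as frequent around members as around coding genes. Cpr11A had most, with 8, then Cpr30F with 7, and Cpr11B, Cpr47Eg, Cpr67B, Cpr78Ca and Cpr78Cb with 5 each.

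The flanks together held 90 distinct summits. Another gene's promoter took 41 of them (45.6%), introns 28 (31.1%), intergenic stretches 15 (16.7%), exons 4 (4.44%) and cuticle protein promoters 2 (2.22%). In the whole IDR-thresholded list 43% were at the promoter of any coding gene, to be set beside both promoter classes of the flanks together. The other classes were not counted over the whole list. The 90 were not weak ones, with a median rank of 3306 where the list's is 3845. An overlapping region in both replicates was found for 89. That says little about the flanks, since the IDR-thresholded list was made from both replicates and each replicate's 30000 regions include background. The overlap was not counted over the whole list.

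The strongest of them, at +89 bp of CG11309, had rank 56 and signal 2875 and lay within 20 kb of Cpr78Ca, Cpr78Cb, Edg78E and Cpr78Cc. It ranked 68 in replicate 1 and 53 in replicate 3. Next came the promoter of aay, a phosphoserine phosphatase gene, near Cpr67B (rank 135). An intergenic summit 3156 bp from Cpr100A, whose nearest coding TSS is that of CG15545, followed (rank 165, signal 1904). Each of these strong summits stood near cuticle protein genes without being within 500 bp of their TSSs.

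The window of the Cpr100A flank summit is shown as the 1 window of the 90 that holds GTGACGAA. It spans 101 bp of the plus strand at chr3R:30870627-30870727, and capitals mark GTGACGAA.
Cpr100A flank summit: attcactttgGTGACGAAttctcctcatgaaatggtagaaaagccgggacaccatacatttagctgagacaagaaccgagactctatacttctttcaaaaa
GTGACGAA was in 1.11% of the 90 flank windows and in 1.69% of all 7689. TATAAA was in 20% of the flank windows and 22.1% of all, with both strands searched. TATCGATA was in 0 of the 90 windows and in 1.46% of all.

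The members formed 37 groups when genes within 20 kb of each other were joined: 12 clusters of at least 3 genes with 69 members, 2 pairs and 23 single genes. Inside the 199 kb that the 12 clusters span lay 5 IDR-thresholded summits, a density of 2.51 per 100 kb, against 5.74 over the arms. The clusters were as dense as the arms in the longer lists, with 21.6 against 22.4 per 100 kb in the pooled list, 22.6 against 22.4 in replicate 1 and 22.1 against 22.4 in replicate 3. In 8 of the 12 clusters no IDR-thresholded summit lay inside the span.

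The clusters differed in where their summits stood. Lcp1 to Lcp4 (4 larval genes on 2R), Cpr49Aa to Cpr49Ah (8 genes on 2R) and Edg84A to Ccp84Aa (8 genes on 3R) had no IDR-thresholded summit inside or within 20 kb, and their members lay 24983 to 31387 bp, 21988 to 48907 bp and 26858 to 46497 bp from the nearest one. The Edg84A cluster spans 20.5 kb and had 1 summit inside in each replicate list, at unlike places. From the TSS of Ccp84Ag it lay at −801 bp in replicate 1 (rank 26420) and at +2029 bp in replicate 3 (rank 27552). In contrast, Cpr67Fa1 to Cpr67Fb had 2 summits inside 4.7 kb, and Cpr65Ea to Cpr65Ec had 1 in 7.84 kb. These were the 2 clusters whose strongest summit of the span and flank was inside.

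The other clusters had their strongest summit beside the array. Cpr47Ea to Cpr47Eg had 1 summit inside and a stronger one in an exon of Fbl6 on the side of Cpr47Eg (rank 690). Lcp65Ag3 to Cpr65Az, the largest with 18 members in 31.2 kb, had 1 inside, next to Cpr65Ay, and a stronger one in an exon of l(3)mbn (rank 815) on the side of Lcp65Ag3. Cpr62Ba to Cpr62Bc lay beside an intergenic summit near GV1 (rank 855), Cpr64Aa to Cpr64Ad beside one in an intron of ImpL2 (rank 1414) and Cpr72Ea to Cpr72Ec beside the Agpat4 promoter (rank 2352). Cpr76Ba to Cpr76Bd, with 4 members in 20.7 kb, had 0 summits inside in any list and the rank 599 summit just outside.

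**Figure D3:**
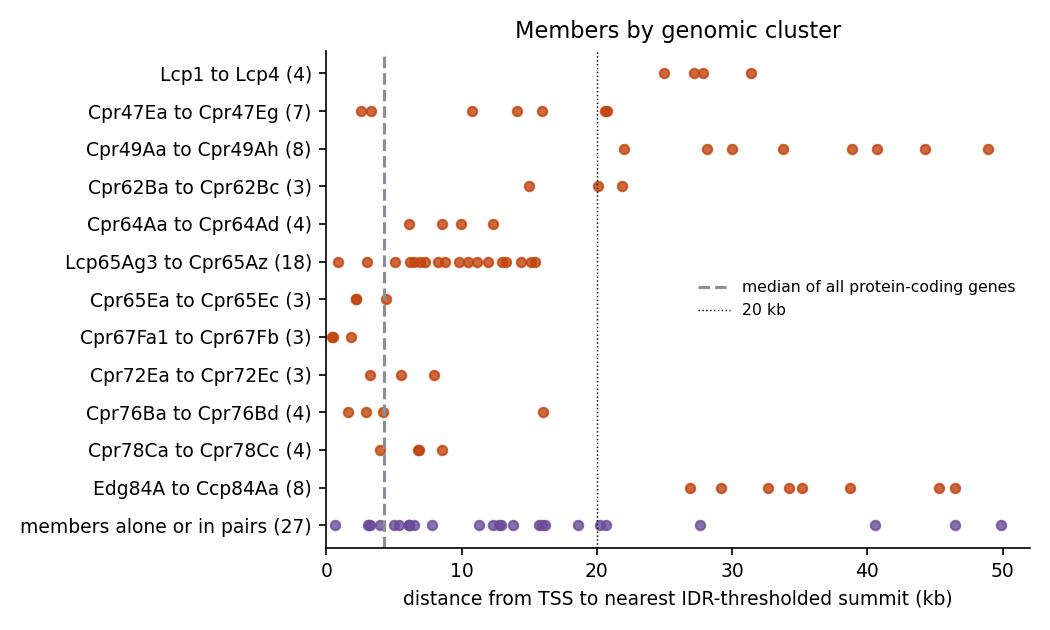
Distance from a TSS to the nearest IDR-thresholded summit (x axis, kb) for each of the 96 cuticle protein genes, by cluster (rows, with the number of genes), with genes alone or in pairs at the bottom; the dashed line is the coding median of 4237 bp and the dotted line 20 kb. Distances differ within a cluster, as in the Cpr47Ea cluster with 2558 to 20720 bp. Every member of the Lcp1, Cpr49Aa and Edg84A clusters lies beyond 20 kb.

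**Figure D4:**
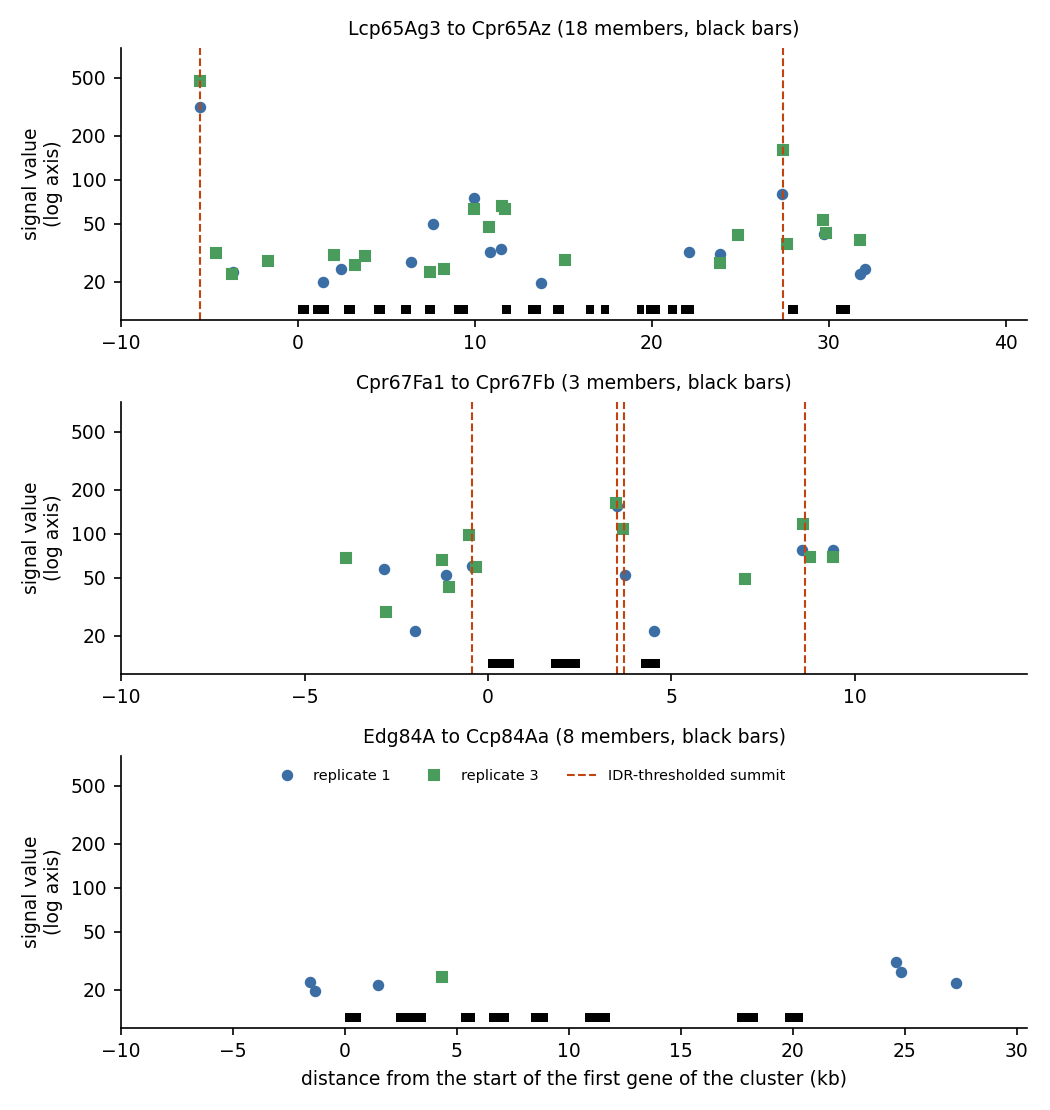
Signal value (y axis, log scale) of regions of replicate 1 (circles) and replicate 3 (squares) by distance from the first gene's start (x axis, kb) in 3 clusters; black bars are cuticle protein genes and dashed lines IDR-thresholded summits. The Lcp65Ag3 cluster has weak summits along its length, an IDR-thresholded one inside next to Cpr65Ay and a stronger one outside on the side of Lcp65Ag3. The Cpr67Fa1 cluster has summits upstream of Cpr67Fa1 and Cpr67Fb. The Edg84A cluster has 1 weak summit inside in each replicate, at unlike places.

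Few cuticle protein genes shared a promoter region with a divergent neighbour. A coding TSS on the other strand within 500 bp upstream was found for 3 members (Lcp65Aa, Cpr65Ax2 and Lcp9), or 3.12%, against 27.4% of coding genes. An IDR-thresholded summit was at 0 of these 3 members, and at 45.1% of all coding genes with such a neighbour. Lcp65Aa and Cpr65Ax2 are each other's neighbour, and both are among the repetitive members, treated below, for which a missing summit is uncertain. Among genes with no divergent neighbour, 2 of 93 members had a summit, against 19% of coding genes. Among those that also had a single TSS, it was 2 of 83 members (2.41%), against 12.9%. In that class the median distance was 12282 bp for members and 6552 bp for coding genes. Members were also shorter, with a median length of 874 bp, against 2166 bp.

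In the window from 250 bp before to 50 bp after the outermost TSS, TATAAA occurred on either strand in 72 members (75%), against 45.9% of coding genes. On the sense strand 45 to 16 bp before the TSS, where a TATA box usually lies, it was in 59 members (61.5%), against 8.75%. TCAGT on the sense strand within 10 bp of the TSS was in 12.5% of members and 12.2% of coding genes, and TATCGATA on either strand was in 1.04% and 9.37%. GTGACGAA was in 0 members and 0.947% of coding genes. The GC content of the window had a median of 44.2% in members and 37.9% in coding genes.

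Of the 59 members with TATAAA so placed, 1 had an IDR-thresholded summit, against 10% of the coding genes with it (122 of 1220). With a single TSS and no divergent neighbour as well, it was 1 of 56 members, against 6.3% of 937 coding genes. The members' share was below the coding share in each of these layouts, where the coding share was itself lower than the 26.1% of all coding genes. In both layouts with TATAAA the members' share rests on 1 gene, Cpr67Fa1 (rank 7383). The gap to the coding share is there a matter of few genes, and the coding classes include the members. Whether layout has a part in the members' count was not tested.

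**Figure D5:**
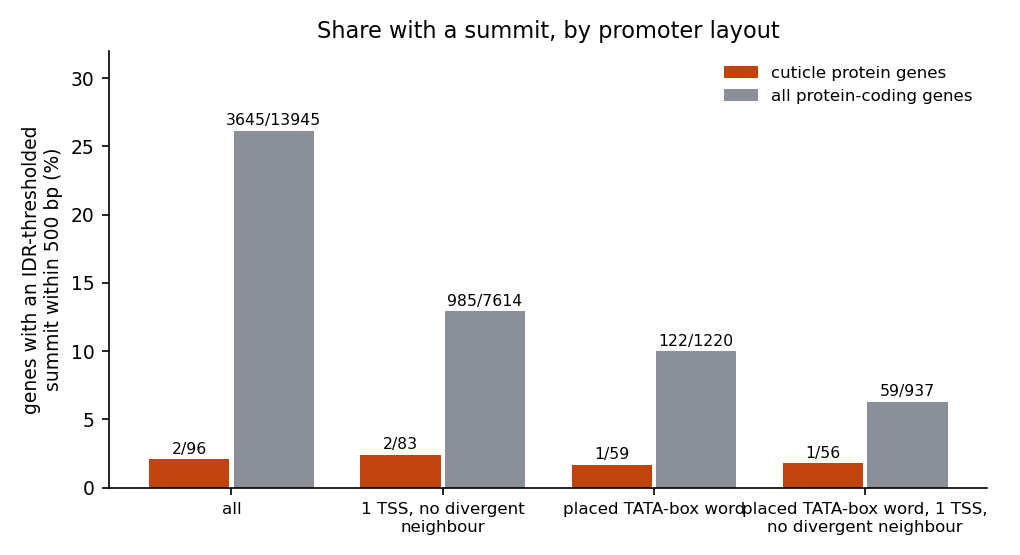
Share of genes with an IDR-thresholded summit within 500 bp of a TSS (y axis, %), for cuticle protein genes (orange) and all protein-coding genes (grey), in all genes and in 3 promoter layouts; numbers above bars are genes with a summit over genes in the class. Cuticle protein genes had 2 of 96, 2 of 83, 1 of 59 and 1 of 56, against 26.1%, 12.9%, 10% and 6.3% of coding genes.

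Near-identical copies can lose reads that align to several places. The share of 50-base words within 500 bp of a TSS that occur once in the genome had a median of 100% in both sets. It was under 90% for 10 members (10.4%), against 3.46% of coding genes. Of these 8 are in the Lcp65Ag3 to Cpr65Az cluster, with the lowest values in Lcp65Ab1 and Lcp65Ab2 (15.7% each), and Ccp84Ab and Ccp84Aa stood at 86% and 84.6%. Among the 86 members at 90% or more, 2 had a summit (2.33%), against 27% of coding genes. Both members with an IDR-thresholded summit are among these 86, so leaving out the other 10 could not lower the count. For the 10 members a missing summit is uncertain.

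Other gene lists of cuticle biology were counted in the same way. The Tweedle genes, which encode another family of cuticle proteins, had 0 of 26 with an IDR-thresholded summit and 4 (15.4%) with a pooled one, against 26.1% and 46.2% of all coding genes in the same lists. Genes of chitin synthesis and modification had 5 of 33 (15.2%), those of sclerotization and pigmentation 3 of 24 (12.5%) and zona pellucida domain genes of the apical matrix 1 of 12 (8.33%). Regulators of cuticle genes and moulting had 7 of 18 (38.9%), the highest share of these lists, and all coding genes stood at 26.1%. In the pooled list the share was 51.5% for the chitin genes and 77.8% for the regulators, above the 46.2% of coding genes. It was 37.5% for sclerotization and pigmentation and 41.7% for the zona pellucida list, below that share. Eip75B, an ecdysone-induced nuclear receptor gene, had a summit at +19 bp with rank 369 (rank 500 in replicate 1, 321 in replicate 3). The receptor gene usp had one at −157 bp (rank 2046), vri, a bZIP factor gene, at −185 bp (rank 2304) and Kr-h1, a zinc-finger gene of juvenile hormone response, at +380 bp (rank 4183).

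Among the chitin genes the strongest were Cht7 (rank 1298), Cht11 (rank 1955), both chitinase genes, Gfat2 (rank 2260), of hexosamine synthesis, and mmy (rank 3875), of UDP-N-acetylglucosamine synthesis. In sclerotization and pigmentation PPO3, a prophenoloxidase gene (rank 1488), Pu, a GTP cyclohydrolase gene (rank 2538), and t, of N-beta-alanyl-dopamine hydrolysis (rank 6749), had one. The zona pellucida list gave qsm (rank 5864). With so few genes in each list, and no test made, these shares are descriptions only.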

How the data were processed

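Peak lists from 2 samples of 1 group were used. Per the labels' assembly field they are on dm6 and dm3, and only the dm6 lists were used, since annotation and genome here are of that assembly. Per the deposited file notes, each replicate's list of 30000 peaks and background regions came from its own alignment plus 1 further file, the pooled list from both alignments plus that file, and the IDR-thresholded list (7689 regions) from these 3 lists. Which aligner, which peak caller and what IDR cutoff were used is not given in the sources used here. The deposited signal value per region is the authors' own enrichment value, of unknown scaling, and was used for ranks within a list. The deposited −log10 q-value of each region was not used, as the strongest regions share its ceiling. The IDR-thresholded list was checked to be the 7689 pooled regions of highest signal.

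TSSs of all transcripts came from Ensembl release 115 (BDGP 6.54), sequence from the RefSeq copy of the assembly. Clusters join members whose gene spans lie within 20 kb. Words were searched in 101 bp around summits and from 250 bp before to 50 bp after the outermost TSS. A 50-base word counted as unique when it occurs once in the genome on either strand. Members and lists were chosen with earlier results of these data known, so counts and medians beside all coding genes stand in for tests. Named genes were members with a summit within 500 bp in any list, the 5 next nearest, the 5 farthest, the 5 with most flank summits (ties kept), the ends of each cluster of 3 or more genes and its gene nearest to the strongest summit, and up to 4 genes of each other cuticle list. Of the symbols in those lists, 9 were not found, and trn (tartan), which has no zona pellucida domain, was taken off its list after the values were seen. The counting code was tested on simulated data. The labels call the samples biological replicates. Python 3.11.15, numpy 2.4.6, pandas 2.3.3 and matplotlib 3.10.9 were used.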

Additional observations from a re-analysis of the deposited data

How the results depend on the processing

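The share of cuticle protein genes with a summit at a TSS stayed below that of coding genes under every alternative of window, list and neighbouring summits tried, but the counts moved. In the IDR-thresholded list, 0 members had a summit within 200 bp (coding genes 18.6%) and 4 within 1000 bp (30.3%). Counting whole regions gave 3 members against 28.1% of coding genes, and the outermost TSS alone gave 2 against 23.6%. The stronger part of the list (signal above its median) held 0 members (coding genes 16.5%), and the whole pooled list 13 (46.2%). Where a summit had a stronger one within 230 bp, dropping it gave 1 (coding genes 26%), and each replicate alone gave 1 to 1. In the pooled list the count of 13 became 2 within 200 bp (coding genes 34.9%), 30 within 1000 bp (52.3%) and 22 for whole regions (49.5%), and 15 to 18 with 1 replicate left out.

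The median distance of members was 16434 bp for the stronger regions, 9301 bp with 1 value per cluster, and 8592 to 11734 bp with 1 replicate left out. The median flank count was 0 within 10 kb (coding genes 1), 6 within 50 kb (coding genes 7), 2 with 1 value per cluster and 1 to 2 with 1 replicate left out; for the stronger regions it was 1 in members and in coding genes alike. Adding the Tweedle genes left the count at 2 of 122. No paired analysis was possible because there was 1 group. The causes of these moves were not tested beyond the window and list each alternative changes. With unknown depth, a gene without a summit is one where none was listed, not one shown to be unbound, and the 2 replicates limit the SDs given.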
